A study of Homo sapiens with 9 samples.

Results

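Annexins are proteins that bind membranes rich in acidic phospholipids when calcium rises inside the cell. They take part in membrane repair, vesicle traffic, the organisation of the cell cortex and, at the outer surface, in clotting and plasminogen activation. Many of them work with small calcium sensors of the S100 family or with the penta-EF-hand proteins sorcin and PDCD6. The genes described here are 10 human annexin genes, ANXA1, ANXA2, ANXA3, ANXA4, ANXA5, ANXA6, ANXA7, ANXA8, ANXA10 and ANXA11, out of 60660 genes in the count matrix. They were chosen by their family name and selected on their read counts across all 9 libraries, with no threshold. Their levels, fold changes and calls are therefore a description, no p-value is given for any of them, and they support nothing beyond themselves.

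RNA was sequenced from OVCAR3, an epithelial ovarian cancer cell line grown with 20% fetal bovine serum and insulin. The Control libraries came from cells transiently transfected with a LacZ plasmid and the CTCFL-OE libraries from cells that received a plasmid encoding CTCFL in the same way, both with 2 µg of plasmid and collected after 48 h, and the CTCFL-KD libraries from an earlier knockdown experiment on CTCFL, which is also called BORIS and is a testis-specific relative of the insulator protein CTCF. Each group had 3 libraries, and each library pooled 3 technical replicates of 1 biological replicate. Because the knockdown RNA came from a separate experiment and was compared with plasmid-transfected cells, the knockdown and the experiment cannot be told apart, and both comparisons share the same 3 Control libraries. The Control libraries had total counts between 19006695 and 24490080, the CTCFL-OE libraries between 17249451 and 20178085, and the CTCFL-KD libraries between 14332622 and 17995196.

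CTCFL itself had 6, 9 and 10 counts in the Control libraries, 36, 34 and 72 counts in CTCFL-OE, and 0, 1 and 0 counts in CTCFL-KD. The libraries followed their labels, with no overlap between the groups. The summed CTCFL count of CTCFL-KD was 5.67% of Control after scaling, with a 95% counting interval from 0.138% to 34.6%. All 12 markers of an ovarian serous carcinoma line were detected, with KRT8 the most abundant. Their summed level lay between 5540 and 5618 CPM (read counts scaled to the same TMM-adjusted library total) in Control, between 5151 and 5298 CPM in CTCFL-OE, and at 17185, 10305 and 9847 CPM in CTCFL-KD. The 10 fibroblast markers summed to at most 44.1 CPM in any library, and COL1A1 was the most abundant of them. COL1A2 was at 0 CPM in all 3 Control libraries and at 14.0, 14.2 and 13.5 CPM in CTCFL-KD. The 7 leukocyte markers summed to at most 4.68 CPM, with CD14 the most abundant and CD3E, ITGAM and CD68 at 3 counts or fewer in every library, and the 5 endothelial markers to at most 20.7 CPM, with VWF the most abundant. By the edgeR test, 2 ovarian markers were called lower and 9 higher in CTCFL-KD, 2 of 4 tested fibroblast markers and 2 of 2 tested leukocyte markers were called higher there, and of 3 tested endothelial markers 1 was called lower and 1 higher, where 38.2% of all tested genes were called. COL1A2, POSTN and CD14, called higher there, had at most 8 counts in any Control or CTCFL-OE library. They passed the low-count filter through CTCFL-KD, so the change itself set how many fibroblast and leukocyte markers were tested. Nothing is read from those counts of called markers. In CTCFL-OE 1 endothelial marker was called higher and no other marker was called, where 3.15% of all tested genes were called. At an unadjusted p under 0.05 there were 3 ovarian, 1 fibroblast, 0 leukocyte and 2 endothelial markers, and by DESeq2 on all libraries 3, 0, 0 and 1. Without CTCFL-KD replicate 1, 2 ovarian markers were called lower and 3 higher in CTCFL-OE and 1 endothelial marker lower and 1 higher. DESeq2 on the compared groups called 5 ovarian and 2 endothelial markers in CTCFL-OE. The share of tested genes called in CTCFL-OE was 27.4% in the fit without CTCFL-KD replicate 1. In the DESeq2 fits of all libraries and of the compared groups it was 3.63% of 37834 and 10.5% of 35917 genes with any count. Those fits had no low-count filter, so their shares are not on the same base as the edgeR shares of filtered genes. The part of these marker differences in the annexin values was not tested, and in bulk RNA fewer cells of a kind and less RNA per cell cannot be told apart.

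Several libraries stood apart from their group. CTCFL-KD replicate 1 had a TMM scaling factor of 0.775, against 1.01 and 1.02 in the other CTCFL-KD libraries, and its log2 difference from them fell with transcript length across 15321 genes (Spearman's rho −0.54, a description across genes, which are not independent). Mitochondrial genes took 6.52%, 6.31% and 6.16% of the counts in Control, 7.40%, 12.4% and 14.9% of those in CTCFL-OE, and 11.8%, 9.64% and 7.80% of those in CTCFL-KD. The part of RNA quality in the annexin values was not tested.

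Per kilobase of merged exons, ANXA2 had the highest annexin level in Control, at 292 ± 8.70 CPM per kb (SD, n = 3). ANXA5 followed at 163 ± 2.44, ANXA1 at 88.3 ± 3.87, ANXA7 at 45.5 ± 0.697, ANXA11 at 27.0 ± 0.865 and ANXA3 at 24.2 ± 1.26 CPM per kb. ANXA6 at 2.88 ± 0.262 and ANXA4 at 1.79 ± 0.112 CPM per kb were lower, and ANXA8 was lower again at 0.417 ± 0.0449 CPM per kb. The ranges of neighbours in this Control order did not overlap down to ANXA8. In CTCFL-KD the order of ANXA1 and ANXA5 was the other way round, at 83.6 ± 10.3 and 80.7 ± 15.5 CPM per kb, and their ranges overlapped. ANXA11 at 34.3 CPM per kb stood above ANXA7 at 22.8 CPM per kb in CTCFL-KD, with separate ranges, the reverse of their order in Control. The length used matters for ANXA2, whose merged exons span 11.6 kb and whose longest transcript has 3.53 kb. With the longest transcript as the length, ANXA2 stood at 956 CPM per kb in Control and stayed first, and ANXA3 and ANXA11 changed places.

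**Figure D1:**
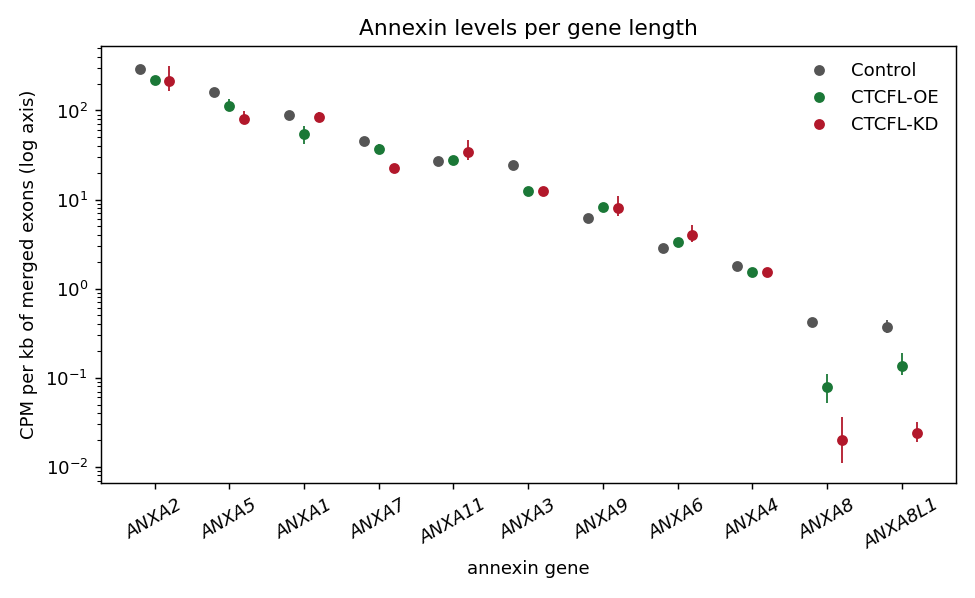
Level of each annexin gene in CPM per kilobase of merged exons, on a log axis, for Control, CTCFL-OE and CTCFL-KD; points are means of 3 libraries and lines run from the lowest to the highest library. ANXA2 leads in each group, and ANXA8 and ANXA8L1 are lowest and differ most between groups; ANXA10 and ANXA13, at or near 0, are left out.

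ANXA10, whose product is best known from the stomach, had 0 counts in 8 of the 9 libraries and 2 counts in CTCFL-OE replicate 3. That is under the floor of 3 counts, which corresponds to between 0.116 and 0.27 CPM in a library, so ANXA10 was not detectable at this depth and was not tested. The other 9 of the 10 annexins passed the filter on low counts. Together the 10 genes took 0.495%, 0.516% and 0.486% of all counts in Control, 0.391%, 0.366% and 0.338% of those in CTCFL-OE, and 0.385%, 0.292% and 0.291% of those in CTCFL-KD. On the scaled counts their sum was 4703, 4900 and 4679 CPM in Control and 3591, 3456 and 3580 CPM in CTCFL-OE. In CTCFL-KD the sum was 4969 CPM in replicate 1 and 2882 and 2861 CPM in the other libraries, so that replicate 1 lay above every Control library and the others below every one. ANXA2 made up between 66.8% and 75.5% of the annexin counts in every library.

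Against Control, 2 of the 9 tested annexins, ANXA3 and ANXA8, were called lower in CTCFL-OE at an adjusted p under 0.1, where 1.16% of the 17794 tested genes were called lower and 3.15% in either direction. A fold change beyond 1 on the log2 scale was also met by 1 of them, ANXA8, as by 0.702% of tested genes in that direction. The share of tested genes called in CTCFL-OE was 0.245%, 0.332% and 0.240% without Control replicate 1, 2 and 3, and 15.1%, 0.431% and 0.635% without CTCFL-OE replicate 1, 2 and 3. In CTCFL-KD 4 annexins, ANXA3, ANXA5, ANXA7 and ANXA8, were called lower at an adjusted p under 0.05, where 16.8% of tested genes were called lower and 38.2% in either direction, and ANXA5 and ANXA8 also met the fold limit, as 7.94% of tested genes did. All 3 CTCFL-OE libraries lay below all 3 Control libraries for 7 annexins, where 20.8% of tested genes did so, and above them for 0, where 16.3% did. For CTCFL-KD the counts were 5 below and 2 above, where 27.6% and 28.7% of tested genes lay. Because the genes were selected on these counts, nothing is read from the difference between these shares. The median log2 fold change of the 9 annexins was −0.41 in CTCFL-OE and −0.43 in CTCFL-KD, where the median of all tested genes was −0.01 and 0.08. Without CTCFL-KD replicate 1 the annexin median in CTCFL-KD was −0.81, where that of all tested genes was 0.01. Between CTCFL-KD and CTCFL-OE, 3 annexins were called at an adjusted p under 0.05, ANXA1 higher and ANXA7 and ANXA8 lower in CTCFL-KD, where 26.8% of tested genes were called. The ANXA1 call was lost under 14 of 19 alternatives, the ANXA8 call under 4 of 18 (without CTCFL-OE replicate 1, without CTCFL-KD replicate 2 or 3, and by DESeq2 on the compared groups) and the ANXA7 call under 1 (edgeR on the compared groups). Without CTCFL-KD replicate 1, 6 annexins were called lower in CTCFL-OE, with ANXA1, ANXA2, ANXA5 and ANXA7 added, and 5 in CTCFL-KD, with ANXA2 added, while 27.4% and 49.9% of all tested genes were called in either direction in that fit.

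**Figure D2:**
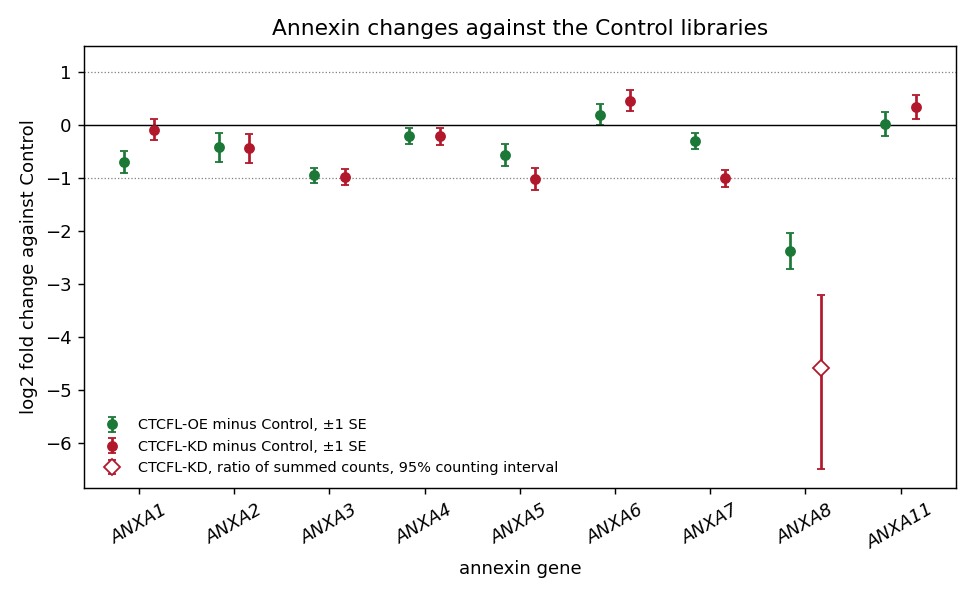
Log2 fold change against Control of the 9 tested annexins, with filled points and bars of 1 SE from the edgeR fit; the open diamond is ANXA8 in CTCFL-KD, drawn as the ratio of summed counts with its 95% counting interval. Dotted lines mark a log2 fold change of 1 in either direction. ANXA8 lies lowest in both comparisons, and ANXA3, ANXA5 and ANXA7 lie close to the lower dotted line in CTCFL-KD.

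ANXA8, a low-abundance annexin of stratified epithelia, had the largest differences. The gene (ENSG00000265190.7) had 45, 55 and 36 counts in Control, 12, 5 and 6 counts in CTCFL-OE, and 2, 1 and 1 counts in CTCFL-KD. The 3 groups did not overlap on the scaled counts, with Control from 1.82 to 2.25 CPM, CTCFL-OE from 0.261 to 0.546 CPM and CTCFL-KD from 0.0547 to 0.180 CPM. The log2 fold change of CTCFL-OE against Control was −2.36 (SE 0.34), and without CTCFL-OE replicate 1 it was −2.71 (SE 0.36). For CTCFL-KD, where each library held 1 or 2 counts, the summed count was 4.17% of Control after scaling, with a 95% counting interval from 1.12% to 10.9%, which covers counting error only. ANXA8 kept its call in both comparisons under every alternative in which it was fitted.

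ANXA8 has a near-identical copy, ANXA8L1, on the same chromosome. The longest coding transcripts of both genes have 2174 bases and differ at 13 of them, and 75.6% of the 75-base windows of ANXA8 occur unchanged in ANXA8L1. How the deposited counts treated reads that match both genes is not given in the sources used here, so the split between them is uncertain. With the counts of both genes summed, the log2 fold change of ANXA8 in CTCFL-OE was −1.97 (SE 0.30) and the call was kept. ANXA8L1, which is not among the 10 genes, had 18, 26 and 25 counts in Control, 12, 6 and 5 counts in CTCFL-OE, and 1, 1 and 1 counts in CTCFL-KD, again with no overlap between groups. The edgeR quasi-likelihood test called ANXA8L1 lower in CTCFL-OE, in 3 of 3 libraries, at a log2 fold change of −1.40 (SE 0.34, Benjamini-Hochberg adjusted p = 0.0792). That call was lost when any Control library was left out and when CTCFL-OE replicate 2 or 3 or CTCFL-KD replicate 2 or 3 was left out, with the replicate block with or without the length trend removed, and by DESeq2 on all libraries. In CTCFL-KD the summed ANXA8L1 count was 6.16% of Control, with a 95% counting interval from 1.24% to 18.8% (edgeR, Benjamini-Hochberg adjusted p = 0.000200, lower in 3 of 3 libraries). Both ANXA8 and ANXA8L1 passed the low-count filter through the Control libraries, the group in which they were high. The difference itself thus decided that these genes were tested, and nothing beyond the values is read from their calls.

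The sequences below are shown because the study lists a predicted CTCFL site for ANXA8 and because ANXA8 and ANXA8L1 moved in the same direction. The study searched sequences around transcription starts, and then kept genes whose predicted site matched a ChIP-seq peak of bound protein. ANXA8 is not named among the genes it kept. In GRCh38 the 12 bases of that site read on the + strand at chr10:47460550-47460561, 1 base from the listed position. ANXA8 is annotated on the − strand at chr10:47460162-47484158, so the bases lie 23603 bases from its annotated start and 393 bases from its annotated end, in an exon that is annotated as untranslated. An exon covers them in 2 of its 8 annotated transcripts, of which 1 is coding. The same 12 bases occur 19 times on chromosome 10, on either strand, and 0 times within ANXA8L1. RefSeq promoter windows of GRCh38.p14, which run 300 bases around each gene start, were at hand for 11 annexin genes, and ANXA8 and ANXA13 had no entry. The letters AGGGGGC, searched on both strands, were in 1 of the 15 annexin windows, that of ANXA8L1 at chr10:46375526-46375825 on the + strand, and in 14.3% of all 34943 windows. A match is a description of letters only. The capitals mark AGGGGGC in both sequences.
ANXA8 listed site: cagtAGGGGGCa
ANXA8L1 promoter window: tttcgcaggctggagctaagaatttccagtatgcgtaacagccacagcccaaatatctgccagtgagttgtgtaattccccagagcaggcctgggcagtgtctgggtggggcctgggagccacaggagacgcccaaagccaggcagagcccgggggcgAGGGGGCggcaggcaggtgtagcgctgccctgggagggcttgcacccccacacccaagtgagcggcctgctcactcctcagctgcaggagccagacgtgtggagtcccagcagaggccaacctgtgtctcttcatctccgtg

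ANXA3, an annexin of epithelial and myeloid cells, (ENSG00000138772.13, GRCh38 chr4:78551747-78610451, + strand) was lower in both conditions. It stood at 120, 123 and 112 CPM in Control, 62.5, 59.6 and 62.4 CPM in CTCFL-OE, and 62.5, 59.1 and 59.7 CPM in CTCFL-KD. No library of either condition reached the Control range, and the libraries within each condition differed by less than 4 CPM. The log2 fold change was −0.94 (SE 0.15) in CTCFL-OE and −0.97 (SE 0.15) in CTCFL-KD, both just short of the fold limit. The CTCFL-OE call of ANXA3 was lost without any 1 of the Control libraries or without CTCFL-OE replicate 2, at log2 fold changes between −0.99 and −0.89 over all alternatives.

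ANXA5, the phosphatidylserine-binding annexin used to stain dying cells (ENSG00000164111.15, GRCh38 chr4:121667946-121696995, − strand), stood at 474, 486 and 473 CPM in Control. In CTCFL-OE it was at 394, 293 and 289 CPM and in CTCFL-KD at 288, 214 and 205 CPM, and both conditions lay below every Control library. The log2 fold change was −0.55 (SE 0.21) in CTCFL-OE, which was not called, and −1.02 (SE 0.21) in CTCFL-KD, which was called (−1.18, SE 0.15, without CTCFL-KD replicate 1). CTCFL-OE replicate 1 was nearest to Control and also had the lowest mitochondrial share of its group, and without it the CTCFL-OE value was −0.72 (SE 0.20) and was called, as it was without CTCFL-KD replicate 1 and under 3 other alternatives. ANXA7, an annexin of secretory vesicles that binds sorcin (ENSG00000138279.16, GRCh38 chr10:73375101-73414076, − strand), stood at 132, 128 and 131 CPM in Control and at 68.6, 66.2 and 61.2 CPM in CTCFL-KD, with no overlap. Its CTCFL-KD level was 50.2% of Control, which is just short of the fold limit (SE 0.16 on the log2 scale). In CTCFL-OE it was at 120, 104 and 94.5 CPM, and its log2 fold change of −0.29 (SE 0.16) was not called with all libraries and was called without CTCFL-KD replicate 1 (SE 0.10).

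ANXA1 and ANXA2 are the annexins best known at the cell surface, ANXA1 as a ligand of formyl peptide receptors and ANXA2 as a docking site for plasminogen in a complex with S100A10. ANXA1 was at 388, 412 and 379 CPM in Control, 300, 240 and 190 CPM in CTCFL-OE, and 425, 340 and 353 CPM in CTCFL-KD. The CTCFL-OE libraries lay below Control while the CTCFL-KD libraries overlapped it. The log2 fold change was −0.69 (SE 0.21) in CTCFL-OE and −0.08 (SE 0.21) in CTCFL-KD, neither called, and the direct difference of CTCFL-KD and CTCFL-OE was 0.61 (SE 0.21). That difference was called with all libraries, and its call was lost with RLE or upper-quartile scaling, with no filter or the filter of 10 counts, with the length trend removed, in both fits of the compared groups, and without any 1 of the Control libraries, CTCFL-OE replicate 2 or 3 or CTCFL-KD replicate 2 or 3. Without CTCFL-OE replicate 1 the CTCFL-OE value of ANXA1 was −0.88 (SE 0.19) and was called, as it was without CTCFL-KD replicate 1 and under 6 other alternatives.

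ANXA2 was at 3320, 3490 and 3312 CPM in Control and at 2414, 2494 and 2702 CPM in CTCFL-OE, with no overlap and a log2 fold change of −0.41 (SE 0.28) that was not called (SE 0.13 and called without CTCFL-KD replicate 1). In CTCFL-KD it was at 3676 CPM in replicate 1, above every Control library, and at 1927 and 1912 CPM in the other libraries, below every Control library. Its CTCFL-KD log2 fold change was −0.43 (SE 0.28) with all libraries, not called, and −0.81 (SE 0.15) without CTCFL-KD replicate 1, called. Of the 75-base windows of the longest coding ANXA2 transcript, 20.8% occur unchanged in the pseudogene ANXA2P2, so reads may have been split between them. ANXA2P2 was between 273 and 285 CPM in Control and between 148 and 224 CPM in CTCFL-KD, lower in 3 of 3 libraries at a log2 fold change of −0.66 (SE 0.20, edgeR, Benjamini-Hochberg adjusted p = 0.0213), a call lost without any 1 of the Control libraries and without CTCFL-KD replicate 2 or 3. In CTCFL-OE its log2 fold change was −0.45 (SE 0.20, edgeR, Benjamini-Hochberg adjusted p = 0.258). ANXA2P2 was called lower there under 3 alternatives, edgeR and DESeq2 on the compared groups and without CTCFL-KD replicate 1. ANXA2P1 was at most 3.50 CPM, ANXA2P3 at most 0.630 CPM and ANXA2R, a receptor for ANXA2, at most 1.04 CPM in any library, and ANXA2P3 was not tested. With all libraries the edgeR test called neither ANXA2P1 nor ANXA2R in either comparison against Control. ANXA2P1 was called in CTCFL-KD under 6 alternatives, among them without CTCFL-OE replicate 1 and without CTCFL-KD replicate 1, and ANXA2R was called in CTCFL-OE under 2, edgeR on the compared groups and without CTCFL-KD replicate 1. ANXA2R had 9, 12 and 5 counts in Control and 14, 20 and 13 counts in CTCFL-OE. It passed the low-count filter through CTCFL-OE, where it was highest, so nothing is read from its calls there.

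The remaining annexins differed little or followed single libraries. ANXA4, an annexin of epithelial membranes, lay between 18.9 and 21.2 CPM in Control, and both conditions lay just below, with log2 fold changes of −0.20 (SE 0.15) and −0.21 (SE 0.15) that were not called. ANXA6, the annexin with a doubled core, was at 14.5, 17.4 and 15.7 CPM in Control and at 28.6, 19.2 and 18.3 CPM in CTCFL-KD. ANXA11, which links RNA granules to lysosomes, was at 233, 221 and 235 CPM in Control and at 402, 240 and 235 CPM in CTCFL-KD. For both genes CTCFL-KD replicate 1 was the highest library, and without it the CTCFL-KD log2 fold change moved from 0.47 (SE 0.20) to 0.24 (SE 0.12) for ANXA6 and from 0.35 (SE 0.23) to 0.05 (SE 0.12) for ANXA11. In CTCFL-OE ANXA6 had a log2 fold change of 0.20 (SE 0.20) and ANXA11 one of 0.03 (SE 0.23), the latter with a sign that turned under 2 alternatives. ANXA9, an annexin outside the list, lay between 9.31 and 10.4 CPM in Control and between 12.4 and 14.4 CPM in CTCFL-OE (edgeR, Benjamini-Hochberg adjusted p = 0.315), and it was called higher there under 3 alternatives, edgeR and DESeq2 on the compared groups and without CTCFL-KD replicate 1 (edgeR, Benjamini-Hochberg adjusted p = 0.0321). In CTCFL-KD it was at 17.7, 10.5 and 10.6 CPM (edgeR, Benjamini-Hochberg adjusted p = 0.178), and without CTCFL-KD replicate 1 the log2 fold change there moved from 0.39 to 0.11. ANXA13 had at most 3 counts in any library.

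**Figure D3:**
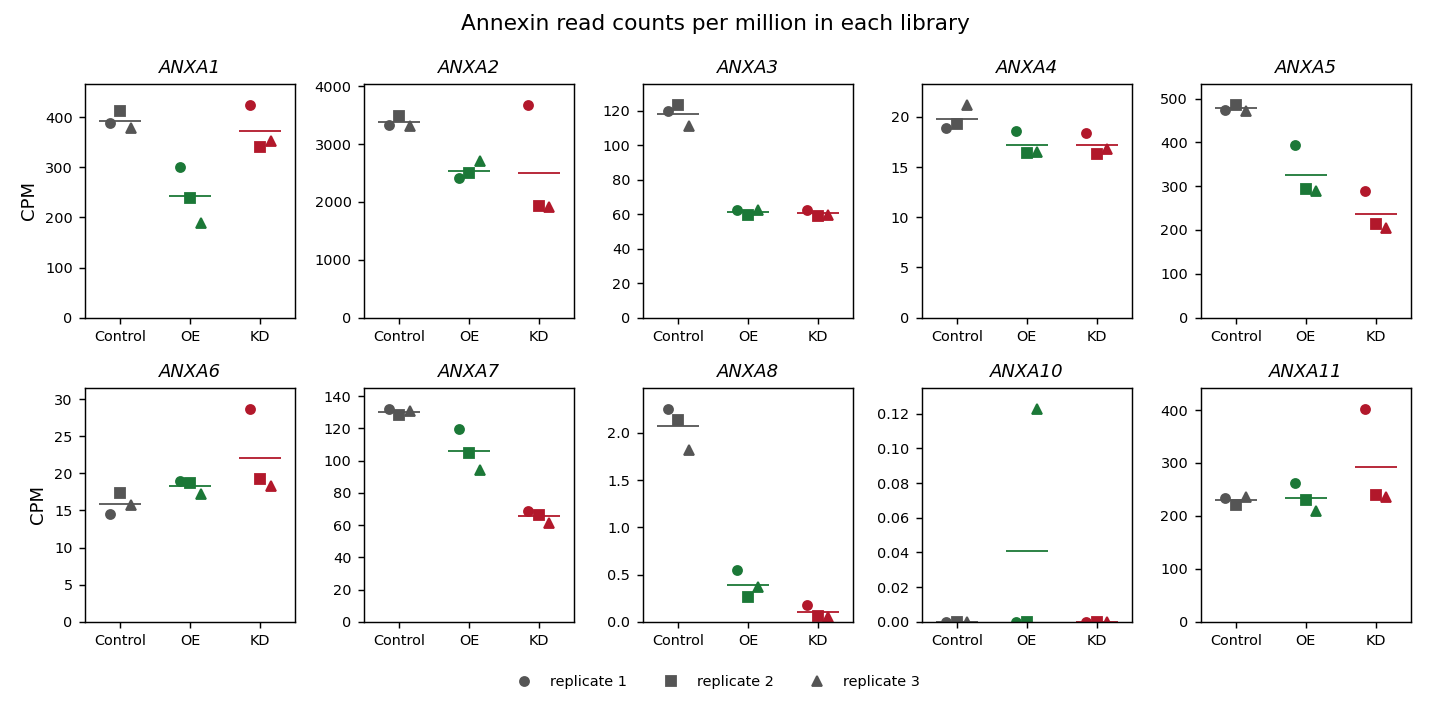
Level in CPM of the 10 annexin genes in each library, with symbols for the replicate number and a horizontal line at each group's mean; each panel has its own axis from 0. ANXA3 and ANXA7 in CTCFL-KD form tight groups below Control, while CTCFL-KD replicate 1 stands above the other CTCFL-KD libraries for ANXA2, ANXA6 and ANXA11.

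The genes with the pattern most like that of ANXA8, by Pearson's r of log2 CPM over the 9 libraries among 15365 genes with a mean of at least 1 CPM, were KRT23 (r = 0.989), NKILA (r = 0.988), CNN2 (r = 0.988), DYNC1LI1 (r = 0.987) and WDR1 (r = 0.985). The 9 libraries form 3 groups, so these values mostly describe the order of the groups. WDR1 was between 539 and 560 CPM in Control, between 332 and 342 CPM in CTCFL-OE and between 208 and 253 CPM in CTCFL-KD. Among the tested annexins, ANXA8 was most like ANXA5 (r = 0.974), ANXA3 most like ANXA8 (r = 0.926), ANXA7 most like ANXA5 (r = 0.934), ANXA4 most like ANXA5 (r = 0.835), ANXA2 most like ANXA5 (r = 0.754) and ANXA1 most like ANXA4 (r = 0.599). ANXA6 and ANXA11 were most like each other (r = 0.872).

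Of the 6 calcium sensor partners, 0 passed an adjusted p under 0.1 in CTCFL-OE by the edgeR test and 1, SRI, passed one under 0.05 in CTCFL-KD, where 3.15% and 38.2% of all tested genes passed. In CTCFL-OE 3 partners had an unadjusted p under 0.05, and DESeq2 called 1 partner in a fit of all libraries and 6 partners in a fit of the compared groups, in which 3.63% and 10.5% of all genes were called. The median log2 fold change of the partners was −0.72 in CTCFL-OE and −0.24 in CTCFL-KD, where that of all tested genes was −0.01 and 0.08. Without CTCFL-KD replicate 1 the partners' median in CTCFL-KD was −0.85, where that of all tested genes was 0.01. SRI encodes sorcin, a partner of ANXA7. It stood at 143, 136 and 136 CPM in Control and at 54.9, 35.8 and 37.3 CPM in CTCFL-KD, lower in 3 of 3 libraries at a log2 fold change of −1.70 (SE 0.23, edgeR, Benjamini-Hochberg adjusted p = 0.000322). S100A10, the partner of ANXA2, was at 576, 576 and 551 CPM in Control, at 428, 291 and 315 CPM in CTCFL-OE and at 543, 201 and 186 CPM in CTCFL-KD. Its CTCFL-KD log2 fold change was −0.87 (SE 0.37, edgeR, Benjamini-Hochberg adjusted p = 0.0834), lower in 3 of 3 libraries. With the replicate number as a block, the log2 fold change of S100A10 in CTCFL-KD was −1.04 (SE 0.29, edgeR, Benjamini-Hochberg adjusted p = 0.0207), and without CTCFL-KD replicate 1 it was −1.55 (SE 0.17, adjusted p = 6.25e-05), the adjusted p ranging up to 0.215 over all alternatives.

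S100A11, a partner of ANXA1, S100A6, a partner of several annexins, and S100A4 were each highest in CTCFL-KD replicate 1 of all libraries. S100A6 was at 1300 CPM there, against 371 and 423 CPM in the other CTCFL-KD libraries and between 593 and 661 CPM in Control. Its CTCFL-KD log2 fold change was 0.17 (SE 0.40) with all libraries and −0.64 (SE 0.14) without replicate 1 (edgeR, Benjamini-Hochberg adjusted p = 0.768 and 0.00428, ranging up to 0.951 over all alternatives of the log2 fold change of S100A6 in CTCFL-KD). For S100A11 these values were −0.28 (SE 0.40) and −1.06 (SE 0.18), with edgeR Benjamini-Hochberg adjusted p = 0.613 and 0.000911, ranging up to 0.999 over all alternatives of the log2 fold change of S100A11 in CTCFL-KD. PDCD6, a partner of ANXA7 and ANXA11, was between 15.9 and 19.5 CPM in Control and at 20.5, 39.5 and 41.2 CPM in CTCFL-OE, at a log2 fold change of 0.98 (SE 0.33, edgeR, Benjamini-Hochberg adjusted p = 0.168). Without CTCFL-KD replicate 1, all 6 partners passed the threshold in CTCFL-OE, 5 lower and PDCD6 higher, and 4 passed it in CTCFL-KD, all lower, where 27.4% and 49.9% of all tested genes passed in that fit.

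**Figure D4:**
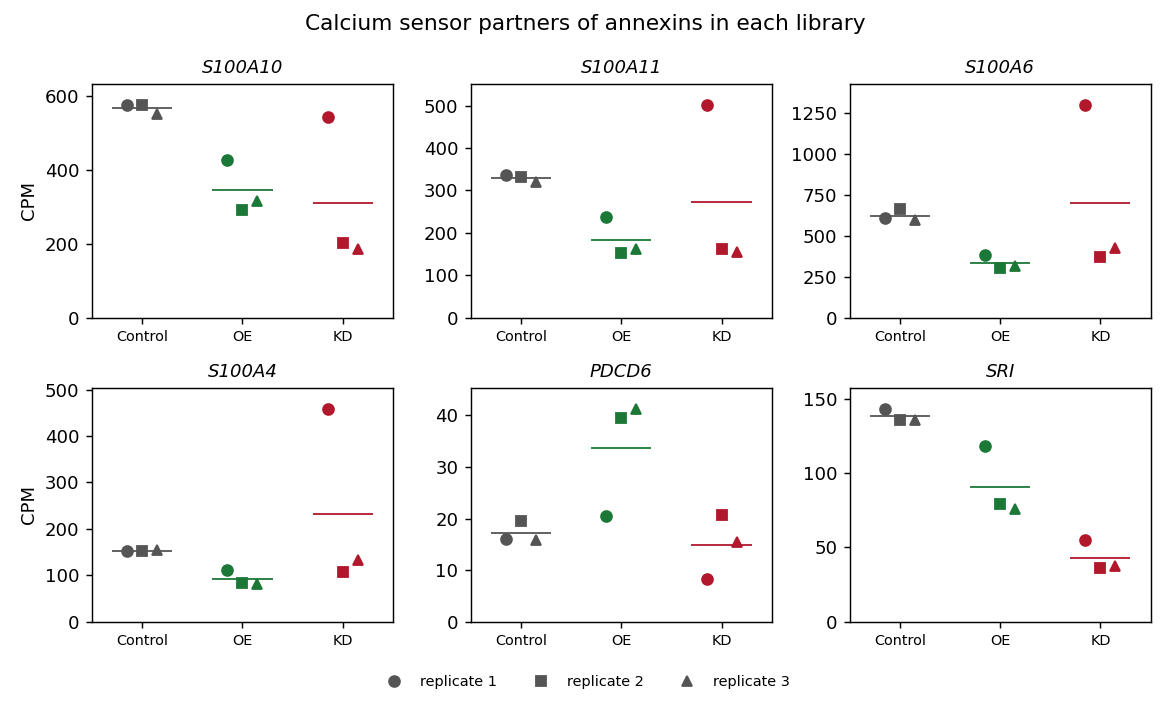
Level in CPM of the 6 calcium sensor partners of annexins in each library, with symbols for the replicate number and a horizontal line at each group's mean; each panel has its own axis from 0. CTCFL-KD replicate 1 stands above the other CTCFL-KD libraries for the S100 genes, and SRI lies below Control in all CTCFL-KD libraries.

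Other genes of annexin pathways were taken from lists by function. Of 15 tested membrane repair genes, 2 were called lower and 0 higher in CTCFL-OE, and 5 lower and 2 higher in CTCFL-KD, with median log2 fold changes of −0.30 and −0.31, where 3.15% and 38.2% of all tested genes were called. Without CTCFL-KD replicate 1 the counts were 8 lower and 1 higher in CTCFL-OE and 9 lower and 2 higher in CTCFL-KD, where 27.4% and 49.9% of all tested genes were called. CAV1, the main coat protein of caveolae, had a CTCFL-KD log2 fold change of −3.51 (SE 0.28, edgeR, Benjamini-Hochberg adjusted p = 1.23e-05), from between 113 and 120 CPM in Control to between 9.56 and 11.8 CPM. CAVIN1, another caveolar coat protein, had one of −2.16 (SE 0.20, edgeR, Benjamini-Hochberg adjusted p = 2.77e-05) and CAPN2, a calcium-dependent protease, one of −2.13 (SE 0.17, edgeR, Benjamini-Hochberg adjusted p = 1.09e-05). DYSF, the repair protein dysferlin, was at most 1.09 CPM in Control and between 5.91 and 7.21 CPM in CTCFL-KD, with 2.60 as its log2 fold change (SE 0.25, edgeR, Benjamini-Hochberg adjusted p = 2.99e-05). CAVIN1 and CAPN2 were also called lower in CTCFL-OE, and those calls were lost without any 1 of the Control libraries and without CTCFL-OE replicate 2 or 3. All of these directions held in 3 of 3 libraries.

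PLAU, the urokinase activator of plasminogen, belongs to the cell surface process that ANXA2 serves. It was between 128 and 130 CPM in Control and between 43.6 and 71.2 CPM in CTCFL-KD, lower in 3 of 3 libraries (log2 fold change −1.15, SE 0.22, edgeR, Benjamini-Hochberg adjusted p = 0.00212). FPR1, FPR2 and FPR3, the receptors of ANXA1, had 0 counts in every library, which allows at most 0.27 CPM in CTCFL-KD replicate 1. Of the 3 tested genes on the list of formyl peptide receptors and phospholipase A2, PTGS1 was called higher in CTCFL-OE (log2 fold change 0.89, SE 0.22, edgeR, Benjamini-Hochberg adjusted p = 0.0795). That call was lost without any 1 of the Control libraries, CTCFL-OE replicate 2 or 3 or CTCFL-KD replicate 3. PLA2G4A, the phospholipase A2 that ANXA1 is known to inhibit, was called higher in CTCFL-KD (log2 fold change 1.28, SE 0.26, edgeR, Benjamini-Hochberg adjusted p = 0.00311). With all libraries no other tested gene of this list was called in either comparison against Control, where 3.15% of all tested genes were called in CTCFL-OE and 38.2% in CTCFL-KD. Without CTCFL-KD replicate 1, 2 of the 3 were called higher in CTCFL-KD, where 49.9% of all tested genes were called. Of 10 tested genes of phosphatidylserine exposure, the lipid that ANXA5 binds, 0 were called in CTCFL-OE, and 1 was called lower and 5 higher in CTCFL-KD, with median log2 fold changes of 0.16 and 0.72, where 3.15% and 38.2% of all tested genes were called. Without CTCFL-KD replicate 1 there were 2 lower and 0 higher in CTCFL-OE, where 27.4% of all tested genes were called. In CTCFL-OE 1 had an unadjusted p under 0.05, and DESeq2 on all libraries called 0. The largest was ATP8A1, a phospholipid flippase, from between 1.67 and 2.21 CPM in Control to between 9.46 and 19.1 CPM (log2 fold change 2.96, SE 0.33, edgeR, Benjamini-Hochberg adjusted p = 8.42e-05). XKR9 (log2 fold change 1.55, SE 0.30, edgeR, Benjamini-Hochberg adjusted p = 0.00274) and XKR8 (log2 fold change 1.14, SE 0.25, edgeR, Benjamini-Hochberg adjusted p = 0.00474) belong to the scramblase family that exposes the lipid. PLSCR4 was also called higher (log2 fold change 1.37, SE 0.38, edgeR, Benjamini-Hochberg adjusted p = 0.0156), a call lost without Control replicate 1 or 3 or CTCFL-KD replicate 3.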

How the data were processed

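The authors deposited raw gene counts for 9 libraries, and these counts, 1 matrix with Ensembl gene identifiers, were the input. The study's methods name trimming with Trimmomatic, alignment to GRCh38 with STAR, counting with featureCounts and a stranded paired-end mRNA kit, while the submitters' processing notes also name kallisto; which annotation was counted, on which strand, and how reads matching several genes were handled are not given in the sources used here. Symbols and lengths came from GENCODE release 44. The 10 annexins and the gene lists were chosen with earlier results of these data known. Genes passing filterByExpr (17794) were fitted with edgeR 4.0.16 in R 4.3.3 (TMM scaling, quasi-likelihood test, all 9 libraries, group only, Benjamini-Hochberg adjustment over all tested genes). A differentially expressed gene (DEG) needed, with the study's thresholds, an absolute log2 fold change above 1 and an adjusted p below 0.1 (CTCFL-OE) or 0.05 (CTCFL-KD). CPM used TMM-scaled totals. DESeq2 1.42.0, other scalings, filters, a length correction, a replicate block and leaving out each library were alternatives. The fit was tested on simulated data. Named genes were all annexins, ANXA2 pseudogenes, ANXA2R and calcium sensor partners, up to 4 called genes with the largest change in each other list, 1 of which is not reported here with the counts of its list, the 5 genes most correlated with ANXA8, and CTCFL. Counting intervals are exact binomial and floors are 3 counts; both cover counting error only, since no molecular identifiers are described. Deviations from the group means correlated weakly for same-numbered libraries of Control and CTCFL-KD (r = 0.280, 0.162 and 0.203 over 14490 genes). Unlike-numbered libraries of these groups lay between −0.271 and 0.099. Same-numbered libraries of Control and CTCFL-OE had r = −0.033, 0.198 and −0.047, and unlike-numbered ones reached 0.160. Since an unlike-numbered pair came as high, these values do not settle whether the numbers pair libraries. The fit used ignored any pairing, and the replicate block was its alternative. Python 3.11.15, pandas 2.3.3, scipy 1.17.1 and matplotlib 3.10.9 were used.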

Additional observations from a re-analysis of the deposited data

How the results depend on the processing

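The 561 genes past the adjusted p in CTCFL-OE were between 44 (without Control replicate 3) and 5040 (without CTCFL-KD replicate 1) with a library left out. The 368 DEGs in CTCFL-OE also moved. Without a low-count filter there were 826, with edgeR on the compared groups alone 835 and with DESeq2 on them 750, and leaving out each library gave between 44 and 1184 (45, 61 and 44 without Control replicate 1, 2 and 3; 1184, 79 and 109 without CTCFL-OE replicate 1, 2 and 3; 980 without CTCFL-KD replicate 1). The 4132 DEGs in CTCFL-KD ranged between 3661 and 4511 when a library was left out. The 4771 genes past the adjusted p between CTCFL-KD and CTCFL-OE became 2668 in the fit of these groups alone and between 3181 and 7297 with a library left out, the highest without CTCFL-KD replicate 1 and the lowest without CTCFL-OE replicate 2.

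The annexin DEG count in CTCFL-OE stayed at 1, also without each library, and was 0 with at least 10 counts required in every library, because ANXA8 is then not tested. Annexins past the adjusted p in CTCFL-OE, 2 by the design used, were 1 with that filter, 4 with edgeR on the compared groups, 4 with DESeq2 on all libraries, 5 with DESeq2 on the compared groups, and between 1 and 6 with a library left out (6 without CTCFL-KD replicate 1). The share of tested genes called in CTCFL-OE, 3.15% of 17794 by the design used, was 20.2% of 17104 with edgeR on the compared groups and 27.4% without CTCFL-KD replicate 1. With DESeq2, which had no low-count filter, it was 3.63% of 37834 genes on all libraries and 10.5% of 35917 on the compared groups. The DESeq2 shares are thus not on the same base as the edgeR shares. In CTCFL-KD the 2 annexin DEGs became 1 with upper-quartile scaling and with the filter of 10 counts, and 4 with no filter, with the length trend removed, with that and the replicate block, and with DESeq2 in both forms; they ranged between 1 and 4 with a library left out, since ANXA3, ANXA5 and ANXA7 lie close to the fold limit. The 4 annexins past the adjusted p in CTCFL-KD were 3 with the filter of 10 counts, where ANXA8 is not tested, and between 4 and 5 with a library left out. The share of all tested genes called in CTCFL-KD was 38.2% by the design used and 38.6% with that filter. With a library left out it was between 25.8% and 49.9%.

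Partner genes past the adjusted p in CTCFL-OE, 0 by the design used, were 5 with no filter, 1 with the length trend removed, 3 with that and the replicate block, 6 with edgeR and 6 with DESeq2 on the compared groups, 1 with DESeq2 on all libraries, and between 0 and 6 with a library left out (6 without CTCFL-KD replicate 1). The share of genes called in CTCFL-OE was 4.01% of 37834 genes with no filter. It was 6.17% of 17794 with the length trend removed and 4.51% with that and the block, and otherwise as given above. In CTCFL-KD the 1 partner became 2 with no filter, with the replicate block, with the length trend removed, with both, and with DESeq2 on all libraries, and between 1 and 4 with a library left out. The log2 fold change of S100A6 in CTCFL-KD was −0.64 without CTCFL-KD replicate 1 and 0.47 without CTCFL-KD replicate 2. The causes were not tested. Of the other values, those of single genes, of levels and of the genes past the adjusted p against Control, 1639 changed no call and stayed within the spread or within 1.5 times the count, 91 gained a call, 83 lost one, 49 moved with no change of call and 1, that of S100A6, gained a call in the other direction.

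With the replicate block alone the DEGs in CTCFL-OE were 302 and the DEGs in CTCFL-KD 4027, ANXA8L1 lost its CTCFL-OE call (edgeR, adjusted p = 0.127) and S100A10 gained one in CTCFL-KD, and the block changed no other call of a named gene in these comparisons. The fit that joined the length trend with the block was chosen after seeing the data. The median log2 fold change of all genes in CTCFL-OE was −0.01 in the design used and 0.11 with DESeq2 on the compared groups. Depth limits ANXA8, ANXA8L1 and CTCFL, which had few counts in CTCFL-KD.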
